A study of Mus musculus with 16 samples.

Results

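The genes described are those through which liver takes up, binds and activates fatty acids. The list held 10 genes: the uptake receptor gene Cd36, the transport protein genes Slc27a1, Slc27a2 and Slc27a4, the binding protein genes Fabp1, Fabp2 and Fabp4, and the acyl-CoA synthetase genes Acsl3, Acsl4 and Acsl5. A gene counted as measured where the array had a probe set carrying its symbol alone, which held for 9 of the 10, among 18820 such genes on the array. Each of the 9 had 1 probe set. The probe set of Acsl3 also carried the symbol Utp14b, so Acsl3 was not analysed here.

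Expression was measured in liver of male mice aged 14 to 16 weeks, with 4 arrays in each of 4 groups. Wild type C57Bl/6J mice and vanin-1 knockout mice on the same strain background were either fed standard chow or fasted for 24 h. Vanin-1, encoded by Vnn1, is a membrane-bound pantetheinase that releases pantothenate, a precursor of coenzyme A, and cysteamine. The labels name no tissue-specific driver for the knockout. Since the labels never call the arrays of a group separate animals, the p-values describe the spread among these arrays, which may be partly technical. WT and KO stand for wild type and vanin-1 knockout, and arrays are named by group and replicate number (fed WT 1).

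Fatty acids released by adipose tissue during fasting enter hepatocytes with the help of CD36 and of the fatty acid transport proteins of the SLC27 family. Inside the cell they are carried by fatty acid binding proteins. Acyl-CoA synthetases of the ACSL and SLC27 families join them to coenzyme A, the step that commits a fatty acid to oxidation or to lipid synthesis. Many of these genes are known targets of PPARα, the nuclear receptor that fatty acids activate in the fasted liver, and PPARα binds as a heterodimer with RXR to direct repeats of the hexamer AGGTCA spaced by 1 base.

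The stretch of 250 bases before the RefSeq start is shown for 4 of the genes, because PPARα acts through such elements. Slc27a1 passed the fasting test as higher in both genotypes, Cd36 and Fabp2 in the knockout alone, and Fabp1 in neither. All 4 are from GRCm38.p6 and read 5′ to 3′ on the strand of the gene. Capitals mark the best match on either strand to 2 AGGTCA hexamers in direct repeat with any 1 base between them, counted over the 12 fixed letters.
Fabp1 (chr6:71199629-71199878, plus strand): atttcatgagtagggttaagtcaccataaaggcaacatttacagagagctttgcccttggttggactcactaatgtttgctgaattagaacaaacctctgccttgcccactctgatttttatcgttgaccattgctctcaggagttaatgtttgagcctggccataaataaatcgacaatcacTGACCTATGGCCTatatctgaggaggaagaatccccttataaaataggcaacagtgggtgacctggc
Cd36 (chr5:17835897-17836146, minus strand): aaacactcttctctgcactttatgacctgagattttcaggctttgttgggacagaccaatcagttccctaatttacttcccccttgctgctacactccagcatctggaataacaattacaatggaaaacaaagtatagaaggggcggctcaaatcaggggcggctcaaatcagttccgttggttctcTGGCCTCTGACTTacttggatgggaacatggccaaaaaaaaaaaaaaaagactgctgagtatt
Fabp2 (chr3:122894822-122895071, plus strand): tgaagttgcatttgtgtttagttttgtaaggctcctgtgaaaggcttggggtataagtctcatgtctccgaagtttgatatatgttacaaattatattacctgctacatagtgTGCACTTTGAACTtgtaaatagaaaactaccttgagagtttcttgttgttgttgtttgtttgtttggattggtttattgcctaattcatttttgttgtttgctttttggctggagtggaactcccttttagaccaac
Slc27a1 (chr8:71569347-71569596, plus strand): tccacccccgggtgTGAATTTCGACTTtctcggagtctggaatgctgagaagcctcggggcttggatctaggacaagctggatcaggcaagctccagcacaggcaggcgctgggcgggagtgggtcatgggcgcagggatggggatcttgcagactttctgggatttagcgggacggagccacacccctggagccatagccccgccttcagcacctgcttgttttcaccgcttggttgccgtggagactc
The Fabp1 match had 1 mismatch and began 67 bases before the start, and 0.484% of the 32851 RefSeq windows of this length held a match with at most 1 mismatch. The Cd36 match had 2 mismatches and began 63 bases before the start, against 3.24% of windows with at most 2. Both lay on the opposite strand. The closest match before Fabp2 had 3 mismatches, as close as in 21.3% of windows. Slc27a1 had 3 annotated starts, and the window shown is 1 of the 2 whose best match had 4 mismatches, which 74.5% of windows reached. The windows of Slc27a2, Acsl4 and Acsl5 had 3 mismatches at best, that of Slc27a4 had 5, and Fabp4 had no entry. A match is a description of letters in this window and not a bound site.

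The values were log2 RMA intensities, on which 1 unit is a doubling, and array medians lay between 5.19 and 5.29. Vnn1, the targeted gene, lay at 8.91 ± 1.61 in fed WT and at 3.89 ± 0.12 in fed KO liver, and at 10.81 ± 0.69 in fasted WT and 3.98 ± 0.30 in fasted KO liver (SD, n = 4 in each). Vnn1 was lower on every KO array (4.26 at most) than on every WT array (6.71 at least). The mean over 10 hepatocyte markers ran from 12.99 to 13.12 over the 16 arrays, with 2 of 10 called higher on fasting in wild type (Hnf4a and Tat) and 0 of 10 in knockout liver. Fasted WT 4 stood apart in pancreatic enzyme transcripts, with a mean of 8.97 over the 6 measured pancreatic acinar markers against 4.22 to 4.42 on the other 15 arrays. Tests below are two-sided limma tests adjusted by Benjamini-Hochberg over all 18820 genes and called at an adjusted p under 0.05. Levels are group means ± SD (n = 4), and levels of different genes are not compared, since their probe sets differ.

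**Figure D1:**
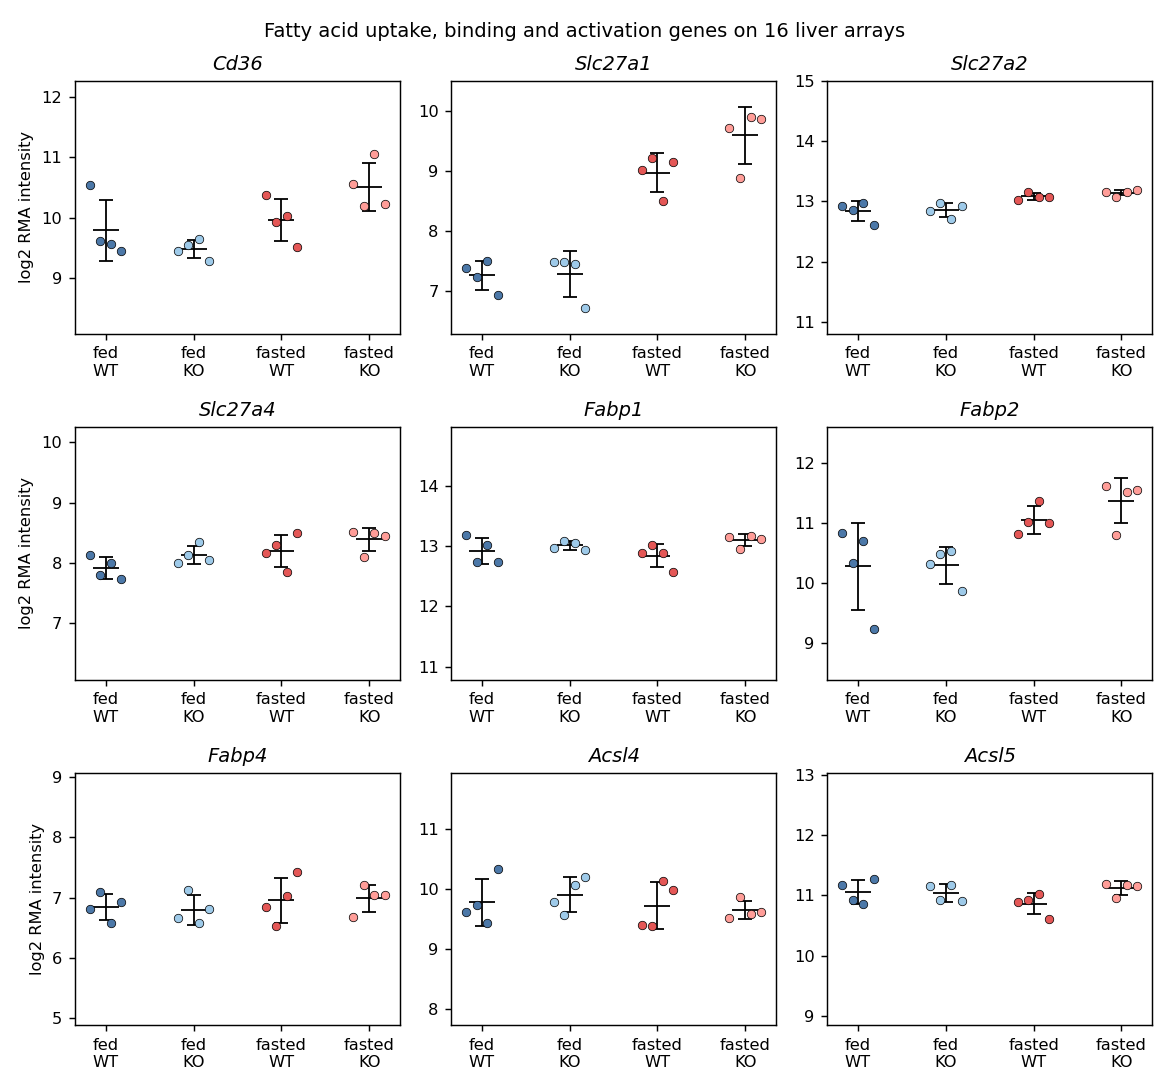
Level of each gene on each of the 16 arrays (points, log2 RMA intensity) with the group mean and SD (bars), for fed and fasted wild type (WT) and vanin-1 knockout (KO) liver. Every panel spans the same number of log2 units, and the separation of fasted from fed arrays is widest for Slc27a1, whose fed arrays end at 7.51 and whose fasted arrays begin at 8.50.

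Fasting was first examined in wild type liver, to describe how the normal liver adjusts this pathway after 24 h without food. Slc27a1, which encodes fatty acid transport protein 1, rose 3.26-fold, and it was the 1 gene of the 9 that passed the test. Over all genes 7.61% passed in either direction and 3.34% as higher. Fabp2, Slc27a4 and Slc27a2 had positive differences that missed the threshold, and Cd36, Fabp4, Fabp1, Acsl4 and Acsl5 differed by 0.19 or less on the log2 scale. In knockout liver the same comparison gave 4 called genes, all higher: Slc27a1 (4.95-fold), Fabp2 (2.11-fold), Cd36 (2.03-fold) and Slc27a2 (1.22-fold). The background there was 9.42% of genes in either direction and 4.53% higher. Arrays of fed and fasted liver did not overlap, with fasted higher, for 2 of 9 genes in wild type (Slc27a1 and Slc27a2) and 4 of 9 in knockout liver (the called genes), where 6.02% and 8.89% of all genes did the same. The difference was above 0 for 6 and 8 of the 9, against 52.7% and 55% of all genes. The median log2 difference of the 9 genes was 0.17 in wild type and 0.26 in knockout liver, against 0.01 and 0.02 over all genes.

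**Figure D2:**
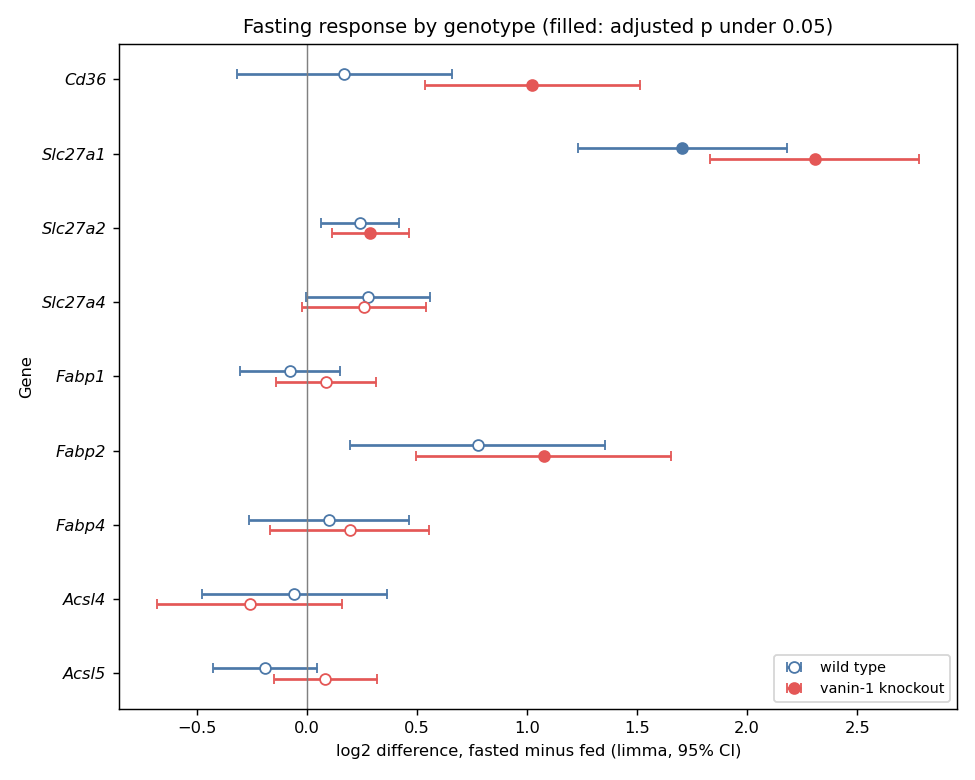
Difference between fasted and fed liver for each of the 9 genes (x axis, log2 units; points, limma estimates; bars, 95% confidence intervals), in wild type (blue) and vanin-1 knockout liver (red). Filled points passed at an adjusted p under 0.05: Slc27a1 in both genotypes, and Cd36, Fabp2 and Slc27a2 in the knockout.

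Among the transport genes, Slc27a1 gave the widest separation. Its fed WT arrays lay at 7.38, 7.23, 7.51 and 6.94 and its fasted WT arrays at 9.02, 9.22, 8.50 and 9.15. Fed KO arrays lay at 7.49, 7.48, 7.46 and 6.72, and fasted KO arrays at 9.72, 8.89, 9.89 and 9.87. No fasted array overlapped a fed one in either genotype, and the lowest value of each knockout group stood apart (fed KO 4 and fasted KO 2). The rise was 1.71 in wild type (SE 0.22, limma adjusted p = 3.03e-04) and 2.31 in knockout liver (SE 0.22, limma adjusted p = 9.43e-06), both on the log2 scale. Under the 27 alternative settings the difference stayed between 1.599 and 1.864 in wild type and between 2.076 and 2.54 in knockout liver, and it was called in all of them. The groups stood in the order fed WT (7.26 ± 0.24), fed KO (7.29 ± 0.38), fasted WT (8.97 ± 0.33) and fasted KO (9.59 ± 0.47). Neither pair of neighbours with the same feeding state passed the genotype test. Slc27a1 is also expressed in skeletal muscle, and the mean over 6 muscle markers ran from 4.29 to 4.49 on the 16 arrays, with 0 of 6 called on fasting in either genotype.

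Cd36 encodes a membrane receptor that binds long-chain fatty acids, and it is also expressed in endothelial cells and macrophages. Fed WT arrays lay at 10.54, 9.62, 9.56 and 9.44, and fed KO arrays at 9.45, 9.55, 9.64 and 9.28. Fasted WT arrays lay at 10.37, 9.92, 10.03 and 9.52, and fasted KO arrays at 10.56, 10.20, 11.06 and 10.22. Knockout arrays separated by feeding state, while wild type arrays overlapped, with fed WT 1 higher than every fasted WT array. The log2 difference was 1.02 in knockout liver (SE 0.23, limma adjusted p = 0.00868) and 0.17 in wild type liver (95% confidence interval -0.32 to 0.66, limma adjusted p = 0.738). The wild type difference was 0.42 without fed WT 1, 0.317 without fasted WT 4, 0.053 without fed WT 4 and 0.035 without fasted WT 1. The knockout call was lost only when fasted KO 1, fed WT 2 and fed KO 4, whose deposited names carry an added ending of unstated meaning, were left out together (adjusted p = 0.0814 by limma, log2 difference 0.943), among 27 settings with adjusted p from 0.00187 to 0.0814. The order of groups was fed KO (9.48 ± 0.15), fed WT (9.79 ± 0.51), fasted WT (9.96 ± 0.35) and fasted KO (10.51 ± 0.40), and no neighbouring pair differed by more than its spread except the last, which the test did not call.

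Only the markers of endothelial cells and macrophages, the other cell types named above, were set beside Cd36. The mean over 10 endothelial markers ran from 8.07 to 8.48 over the 16 arrays, with 0 of 10 called on fasting in either genotype. Over 10 Kupffer cell and macrophage markers it ran from 8.08 to 8.43 in fed KO and from 7.60 to 8.30 in fasted KO liver, and 1 of 10 was called, lower. In wild type liver it ran from 8.19 to 8.73 when fed and from 7.89 to 8.28 when fasted, with 2 of 10 called lower. Their part in the Cd36 values was not tested. In whole liver, fewer cells of a type and less RNA per cell cannot be told apart.

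Slc27a2 encodes fatty acid transport protein 2, which also activates very long-chain fatty acids, and its differences were small. Fed WT arrays lay at 12.93, 12.85, 12.98 and 12.61 and fasted WT arrays at 13.02, 13.16, 13.08 and 13.08. Fed KO arrays lay at 12.84, 12.97, 12.70 and 12.92 and fasted KO arrays at 13.16, 13.08, 13.15 and 13.19. All fasted arrays lay above all fed arrays. The log2 difference was 0.24 in wild type (SE 0.083, limma adjusted p = 0.0904) and 0.29 in knockout liver (SE 0.083, limma adjusted p = 0.0368). The knockout call missed the threshold without any 1 of fasted KO 1, 3 and 4 and fed KO 1 and 3 (limma adjusted p 0.0733 to 0.124), and also with the replicate number as a block (0.0658) or with each array centred on its median (0.0717). It was also lost without fasted KO 1, fed WT 2 and fed KO 4 together (limma adjusted p = 0.110) and without fasted WT 4 and fed KO 4 (0.0520). Slc27a4, which encodes the related fatty acid transport protein 4, had log2 differences of 0.28 and 0.26 in wild type and knockout liver (limma adjusted p = 0.238 and 0.270). Its groups overlapped in both, with means of 7.92 ± 0.18 in fed WT, 8.13 ± 0.15 in fed KO, 8.20 ± 0.27 in fasted WT and 8.39 ± 0.19 in fasted KO liver.

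Of the binding protein genes, Fabp2 was called in the knockout. It encodes the intestinal fatty acid binding protein, best known from enterocytes. Fed WT arrays lay at 10.83, 10.34, 10.69 and 9.24, and fasted WT arrays at 10.82, 11.02, 11.37 and 11.00. Fed KO arrays lay at 10.31, 10.48, 10.53 and 9.86, and fasted KO arrays at 11.61, 10.80, 11.52 and 11.55. The wild type groups overlapped by a single pair of arrays, fed WT 1 and fasted WT 1, and fed WT 4 was lower than all other arrays. The log2 difference was 0.78 in wild type liver (95% confidence interval 0.20 to 1.36, limma adjusted p = 0.102) and 1.08 in knockout liver (SE 0.27, limma adjusted p = 0.0188). The wild type difference was 0.433 without fed WT 4. The knockout call was lost without fasted KO 1 (limma adjusted p = 0.0641), fasted KO 4 (0.0571) or fed KO 4 (0.0632), and without fasted KO 1, fed WT 2 and fed KO 4 together (0.176, log2 difference 0.851). It was also lost without fasted WT 4 and fed KO 4 (0.0701). Group means were 10.28 ± 0.72 in fed WT, 10.29 ± 0.31 in fed KO, 11.05 ± 0.23 in fasted WT and 11.37 ± 0.38 in fasted KO liver. The fed genotypes differed by less than their SD, and the fasted ones, which the test did not call, overlapped.

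Intestinal markers were checked because of the known site of Fabp2. The mean over 8 intestinal epithelial markers ran from 4.01 to 4.23 in fed and from 4.34 to 4.49 in fasted liver. Their median log2 difference on fasting was 0.10 in wild type and 0.07 in knockout liver, against 0.01 and 0.02 over all genes. The fasting difference was above 0 for 7 of 8 markers in wild type and 6 of 8 in knockout liver, against 52.7% and 55% of all genes. Vil1, Cdx2, Cdh17, Sis and Krt20 had group means of 3.83 or less and so lay near or below the lower quartiles of the arrays. Muc2 means were 3.97 or less. Cdx1 was brighter, and its fasted WT arrays (5.55 to 5.68) lay above its fed WT arrays (5.28 to 5.42). Its knockout groups overlapped. The 1 marker called was Lgals4, which rose in both genotypes, from 7.64 to 9.10 in wild type and from 7.54 to 9.37 in knockout liver. Its rise was the widest of the 8 and so the largest share of the rise in their mean.

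Fabp1, the liver-type binding protein that is among the most abundant proteins of the hepatocyte cytosol, showed no called difference. Its group means were 12.92 ± 0.22 in fed WT, 13.01 ± 0.07 in fed KO, 12.84 ± 0.19 in fasted WT and 13.10 ± 0.10 in fasted KO liver. The fasting difference was -0.08 in wild type (95% confidence interval -0.30 to 0.15) and 0.09 in knockout liver (-0.14 to 0.32). The arrays of fed and fasted liver overlapped in both genotypes. Fabp4, the adipocyte and endothelial binding protein, had means of 6.85 ± 0.22 and 6.79 ± 0.25 in fed and 6.95 ± 0.37 and 6.99 ± 0.22 in fasted WT and KO liver. Its highest value, 7.42, was on fasted WT 4, where the adipocyte markers Adipoq (4.64) and Plin1 (5.62) were also at their highest. Adipoq lay between 3.08 and 4.16 on the other arrays. By single arrays, Retn was also highest in fasted WT liver (5.07). Lep was highest in fed KO (4.33), Cidea and Lipe in fasted KO (3.58 and 7.94) and Car3 in fed WT liver (13.32). The mean over 7 adipocyte markers ran from 5.47 to 6.02 over the 16 arrays, and on fasted WT 4 it was 5.94, below fed WT 2 and fed KO 2 (both 6.02). Among the fasted arrays that mean was highest on fasted WT 4, the others lying between 5.47 and 5.72. The 1 of 7 markers called on fasting was Car3, a carbonic anhydrase gene also expressed in hepatocytes, which fell from 13.12 to 11.86 in wild type and from 13.18 to 11.59 in knockout liver. Without fasted WT 4 the wild type fasting difference of Fabp4 was -0.052, against 0.10 with it.

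The synthetase genes did not pass the test in either genotype. Acsl4, whose product prefers arachidonate and other long polyunsaturated fatty acids, had log2 fasting differences of -0.06 in wild type (95% confidence interval -0.48 to 0.36) and -0.26 in knockout liver (-0.68 to 0.16). Its group means were 9.78 ± 0.39, 9.91 ± 0.28, 9.72 ± 0.39 and 9.65 ± 0.15 in fed WT, fed KO, fasted WT and fasted KO liver. Acsl5, whose product is found on mitochondria and endoplasmic reticulum, had differences of -0.19 (-0.43 to 0.04) and 0.09 (-0.15 to 0.32), with means of 11.05 ± 0.20, 11.04 ± 0.15, 10.86 ± 0.18 and 11.12 ± 0.11 in the same order. For both genes all groups overlapped.

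The array names give a plate column, 5 or 7, and each column held 2 arrays of each group. In these columns the log2 rise of Slc27a1 was 1.32 and 2.09 in wild type and 2.33 and 2.28 in knockout liver. In knockout liver the rise was 1.26 and 0.79 for Cd36, 1.15 and 1.01 for Fabp2 and 0.39 and 0.19 for Slc27a2. Each called difference thus kept its direction in both columns.

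The genotypes were then compared within each feeding state, to ask whether loss of vanin-1 altered these genes. In fed liver 0 of 9 genes were called, and 0 had an unadjusted limma p under 0.05, against 0.00531% and 5.76% of all genes. In fasted liver 0 of 9 were called by limma (0.0159% of all genes). At an unadjusted p under 0.05 there were 4 of 9, all higher in the knockout, against 3.19% of all genes higher at that level. These were Slc27a1, Cd36, Acsl5 and Fabp1. The log2 difference between fasted KO and fasted WT was 0.62 for Slc27a1 (95% confidence interval 0.15 to 1.10), 0.55 for Cd36 (0.06 to 1.04), 0.26 for Acsl5 (0.02 to 0.49) and 0.26 for Fabp1 (0.03 to 0.49), with limma adjusted p of 0.867 to 0.872. The arrays of the 2 genotypes overlapped for each of these genes, and none passed the correction over all genes. In plate columns 5 and 7 the difference was 1.05 and 0.20 for Slc27a1, 0.61 and 0.49 for Cd36, 0.23 and 0.28 for Acsl5, and 0.27 and 0.24 for Fabp1.

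In all, 8 of 9 genes lay higher in fasted KO than in fasted WT liver, Acsl4 being the exception, where 50.5% of all genes did. Without fasted WT 4, the array with pancreatic transcripts, the differences were 0.682 for Slc27a1, 0.4 for Cd36, 0.173 for Acsl5 and 0.168 for Fabp1. Fasted WT 4 was the lowest of its group for Cd36, Fabp1 and Acsl5. Without fasted KO 2 they were 0.857, 0.65, 0.314 and 0.305. The lowest value with 1 array left out was 0.465 for Slc27a1, without fasted WT 3, and 0.364 for Cd36, without fasted KO 3. In fed liver 6 of 9 genes lay higher in the knockout (47.9% of all genes), and the widest difference was that of Cd36, -0.31 (95% confidence interval -0.80 to 0.18). Without fed WT 1 it was -0.058, and that of Slc27a4, 0.282, was then wider.

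The test of whether the genotypes responded differently to fasting also called 0 of 9 genes (limma, 0% of all genes). At an unadjusted p under 0.05 it gave 1 gene, Cd36, against 4.91% of all genes. Its response was 0.85 larger in the knockout on the log2 scale (95% confidence interval 0.16 to 1.54, limma adjusted p = 0.948). That value was 0.605 without fed WT 1, the fed wild type array with high Cd36, and 0.642 without fasted WT 4 and fed KO 4. Over the 9 genes the knockout response was the larger for 7, where 52.4% of all genes had the larger response in the knockout. The call of Cd36, Fabp2 and Slc27a2 in knockout but not in wild type liver therefore does not show that their responses differed.

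**Figure D3:**
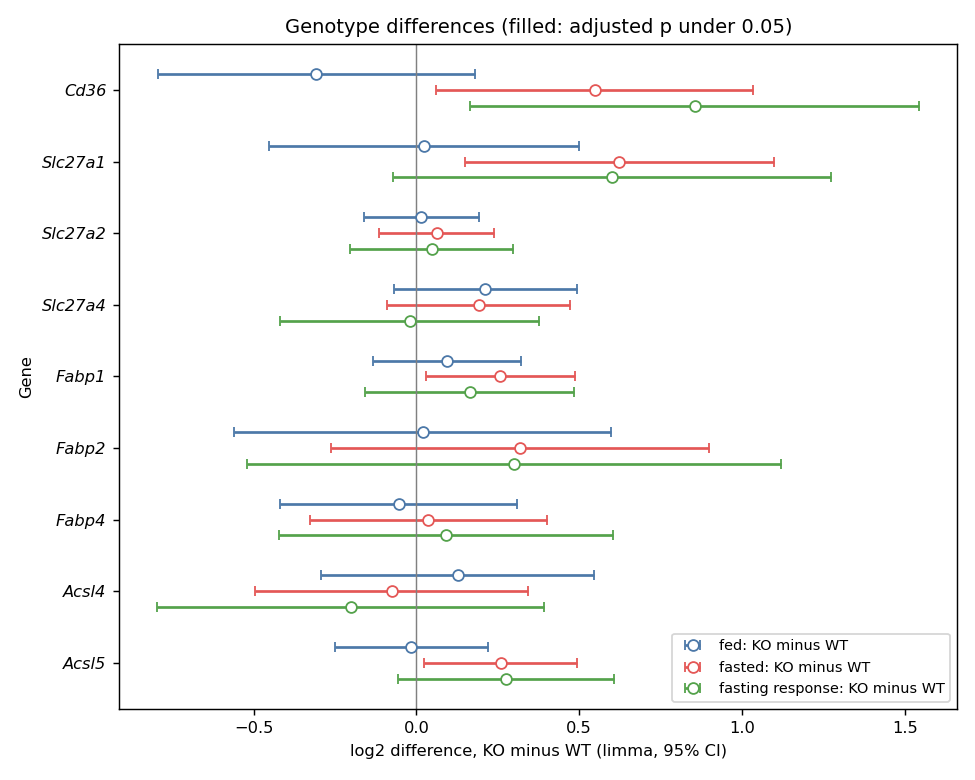
Difference between knockout and wild type for each gene (x axis, log2 units; points, limma estimates; bars, 95% confidence intervals), in fed liver (blue), in fasted liver (red) and for the fasting response (green). No point is filled, since none passed at an adjusted p under 0.05. The fasted intervals of Cd36, Slc27a1, Fabp1 and Acsl5 lie above 0.

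Within groups, single arrays were low or high for several of the genes. On fasted KO 2 the level was the lowest of its group for 7 of 9 genes and the highest for the other 2, Fabp4 and Acsl4. Fed WT 4 and fed KO 4 were each the lowest of their groups for 5 of 9 genes, including Cd36, Fabp2 and Slc27a1, and each the highest for Acsl4. Fed KO 4 also had the highest mean over 6 neutrophil markers, 4.31, against 3.75 to 3.84 on the other fed KO arrays. The next highest array, fasted KO 1, lay at 4.23. Vnn1 itself lay at 6.71 on fed WT 4, against 8.74 to 10.34 on the other fed WT arrays. The largest mean deviation from the group over the 9 genes was 0.21 on fed WT 1, followed by -0.20 on fasted KO 2 and -0.16 on fed WT 4.

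The genes whose pattern over the 16 arrays came closest to each of the 4 called genes were found after centring every gene on its own mean, among 9401 genes above the median level. The measure was the root mean square of the difference over the arrays, in log2 units. Nearest to Slc27a1 were Ehhadh (0.32), a peroxisomal beta-oxidation enzyme gene, and Plin5 (0.36), which encodes a lipid droplet protein, against an SD of Slc27a1 over the arrays of 1.11. Nearest to Fabp2 were Eci1 (0.21) and Ech1 (0.24), both isomerase genes of unsaturated fatty acid oxidation, against an SD of 0.64. Nearest to Cd36 were Kdsr (0.25), a sphingolipid synthesis gene, and Paqr9 (0.27), against an SD of 0.51. Nearest to Slc27a2 were Hyal2 (0.076), a hyaluronidase gene, and Acat1 (0.077), which encodes a mitochondrial acetoacetyl-CoA thiolase, against an SD of 0.17. These are descriptions over 16 arrays that share their 4 groups.

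**Figure D4:**
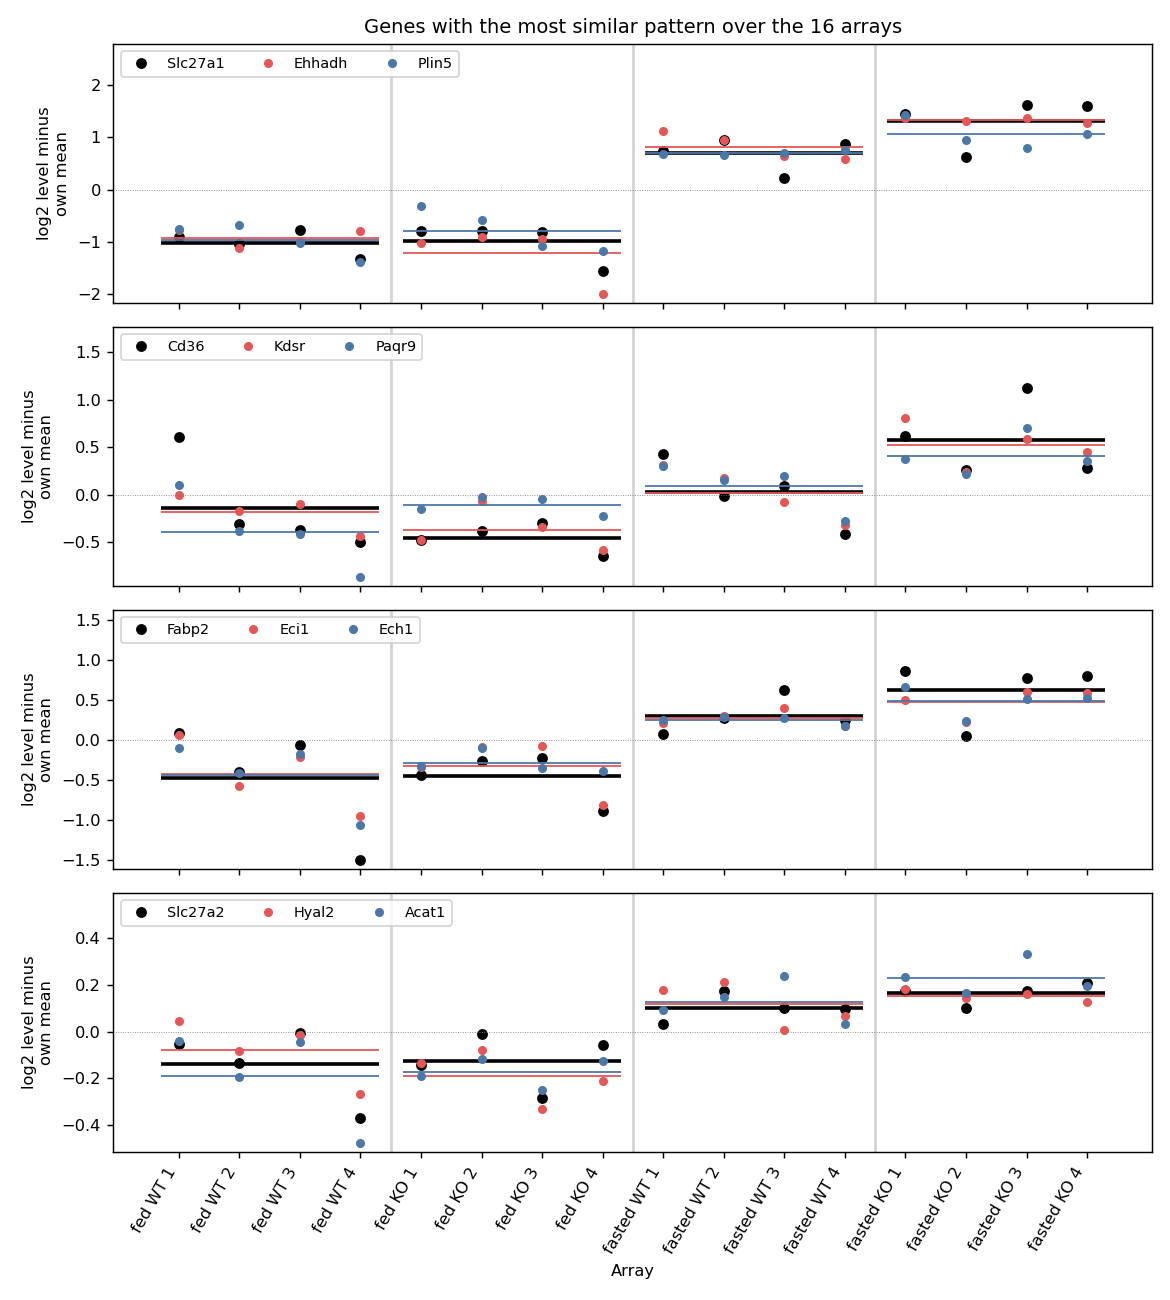
Centred log2 level of Slc27a1, Cd36, Fabp2 and Slc27a2 (black) on each array with the 2 genes of most similar pattern (red and blue); horizontal lines are group means. The low values of Fabp2 on fed WT 4 and fed KO 4 are shared by Eci1, and that on fed WT 4 also by Ech1. Choosing genes by likeness over these same arrays favours such sharing.

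The wider set of fatty acid and acyl-CoA uptake, binding and activation genes, a list of 36 of which 33 were measured, held mainly genes that did not pass the test and a few that fell. In wild type liver 0 rose by limma, 4 fell and 29 did not pass the test. In knockout liver 1 rose, 4 fell and 28 did not pass. Over all genes 4.27% and 4.89% fell. The median log2 difference of the 33 genes was 0.01 in wild type and -0.0047 in knockout liver, against 0.01 and 0.02 over all genes. Acsl1, the main hepatic long-chain synthetase, was among the 3 not measured.

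The 3 genes that fell in both genotypes encode enzymes that activate acetate or medium-chain acids. Acss2, the cytosolic acetyl-CoA synthetase gene, fell 2.44-fold in wild type and 2.92-fold in knockout liver (limma adjusted p = 0.00553 and 0.00101). Its wild type mean went from 10.94 ± 0.50 to 9.66 ± 0.16 and its knockout mean from 10.97 ± 0.65 to 9.42 ± 0.07. The medium-chain synthetase genes Acsm1 and Acsm5 fell 1.55-fold and 1.51-fold in wild type and 1.67-fold and 1.52-fold in knockout liver (limma adjusted p = 3.37e-04 to 0.00390). Fabp5, the epidermal-type binding protein gene, fell 5.10-fold in wild type liver (limma adjusted p = 0.0127). Its fed WT arrays spread widely, at 7.18, 9.23, 7.27 and 9.87, and fasted WT arrays lay at 6.11, 6.15, 6.20 and 5.67. In knockout liver the Fabp5 difference was -1.20 on the log2 scale and did not pass (limma adjusted p = 0.199).

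In knockout liver Acsf3, the mitochondrial malonyl-CoA synthetase gene, rose 1.56-fold (limma adjusted p = 9.95e-05). In wild type liver its mean went from 7.66 to 7.90, with no overlap of arrays, and did not pass the test. Cavin1, which encodes a coat protein of caveolae, fell 1.32-fold in knockout liver (limma adjusted p = 0.0301). That call was lost without any 1 of fasted KO 2, 3 and 4 or fed KO 1, 2 and 4 (limma adjusted p 0.0509 to 0.0916). Its wild type mean went from 6.12 to 6.01, which did not pass. The difference of the fasting responses called 0 of the 33 genes of the wider list. Slc27a5, the bile acid and fatty acid ligase gene of liver, had group means from 11.82 ± 0.06 in fasted KO to 12.04 ± 0.14 in fed KO liver. Its fasting differences, 0.00 in wild type and -0.23 in knockout liver, did not pass the test.

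**Figure D5:**
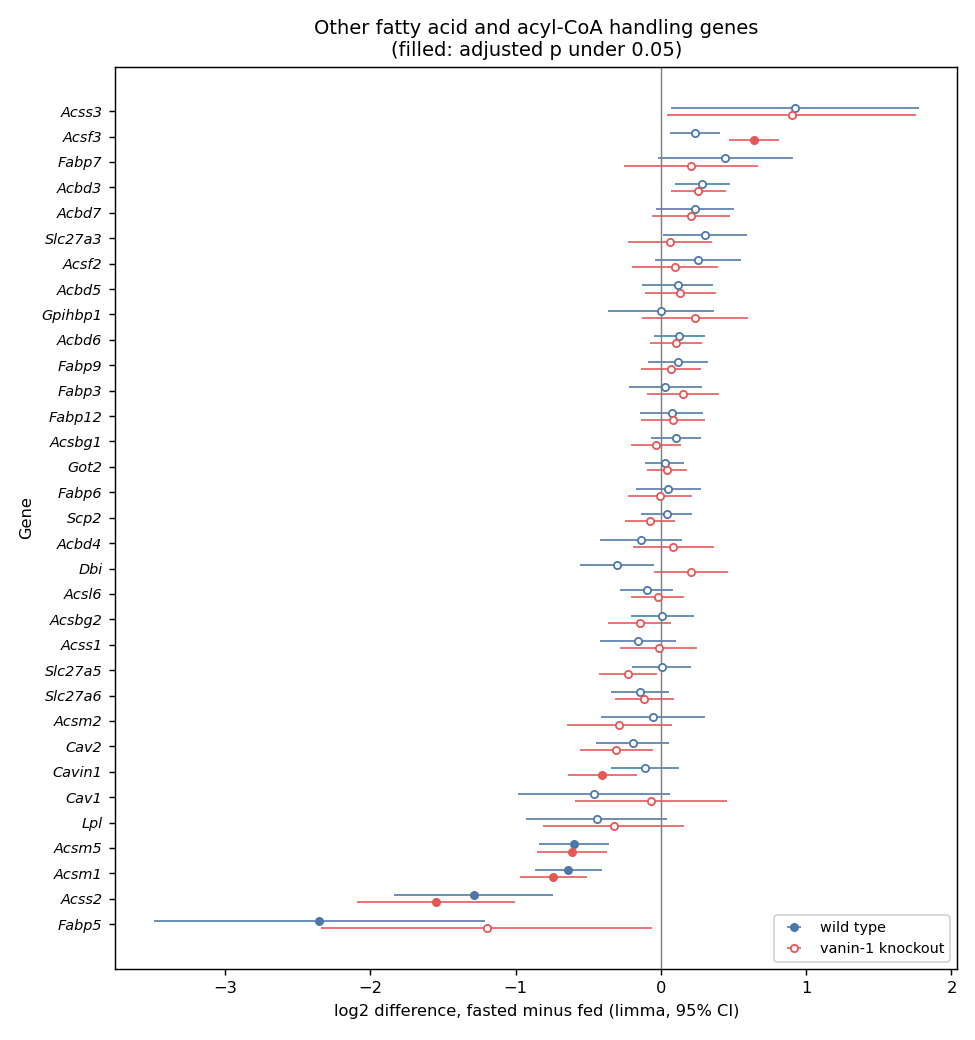
Difference between fasted and fed liver for the 33 measured genes of the wider list (x axis, log2 units; points, limma estimates; bars, 95% confidence intervals) in wild type (blue) and knockout liver (red), ordered by the mean of both. Filled points passed at an adjusted p under 0.05, and Fabp5, Acss2, Acsm1 and Acsm5 lie at the lower end.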

How the data were processed

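Liver RNA of 16 samples was hybridised to whole-transcript arrays. The deposited values are log2 intensities per probe set made with RMA, per the submitters' processing notes, a procedure of background correction, quantile normalisation and probe summary. For the array, no genome build is given in the sources used here. Of 35556 probe sets, a platform table named 21218 with 1 gene symbol and 1881 with several. Only the former were used, and the probe set with the highest mean was kept per gene, giving 18820 genes with no filter on dim ones. The number of arrays limits precision.

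A mean per group was fitted to all 16 arrays with limma 3.58.1 in R 4.3.3 (12 residual and 4.66 prior degrees of freedom), and the procedure was tested on simulated data. Plate column was also fitted as a block. The same-number pairing, other scalings, filters and variance priors, and leaving out arrays, were tried as alternatives. Genes were named by a fixed rule: all members, the 4 called genes of the wider list with the largest fasting differences plus Acsl1 and Slc27a5, Vnn1, markers of cell types known to express a member, and the 2 genes most similar to each called member. Acsf3, Cavin1, Lgals4, Car3, Hnf4a and Tat were named, after their values were seen, to account for small counts. Members and lists were chosen with earlier results of these data known. Promoter sequences are from RefSeq (GRCm38.p6), with entries for 9 of the 10 listed genes.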

Additional observations from a re-analysis of the deposited data

Results flagged for a closer look

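In 36 sets of 4 arrays (9 genes in 4 groups), 5 held an array that stood apart from the other 3 of its group by Dixon's criterion, where chance alone gives about 1.8 of 36. Cd36 lay at 10.54 on fed WT 1, against 9.44 to 9.62 on the other fed WT arrays. Slc27a1 lay at 6.72 on fed KO 4, against 7.46 to 7.49 on the others. Fasted KO 2 gave the other 3 values. They were Fabp2 at 10.8 (others 11.52 to 11.61), Slc27a1 at 8.89 (others 9.72 to 9.89) and Acsl5 at 10.96 (others 11.15 to 11.19).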

How the results depend on the processing

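Each of 45 differences (9 genes in 5 contrasts) was recomputed under up to 27 other settings, 16 of which left out 1 array. Of 1206 recomputed values, 1146 kept direction and call, 15 lost a call and 45 changed sign. These counts overstate stability, since most of the differences had no call to lose. Some settings, such as another variance prior or an array left out of a group not compared, also cannot move the estimate. The calls lost were those of Slc27a2 (9 of 27 settings), Fabp2 (5) and Cd36 (1) in knockout fasting. The number of genes called there was 4, and 1 without fasted KO 1, fed WT 2 and fed KO 4 together, 2 without fasted WT 4 and fed KO 4, and 2 to 4 with 1 array left out (2 without fasted KO 1 or fasted KO 4). With the replicate number as a block it was 3, and 1 in wild type fasting as without it. Deviations from the group means correlated above 0.1 in 4 of 24 same-numbered pairs, against 15 of 72 differently numbered pairs (medians 0.014 and -0.0094). Of 16 arrays, 3 were closest to one of their own number, so the numbers were not taken as pairs. In wild type fasting 1 gene was called under every setting, and in the genotype contrasts 0. Over all genes, calls in wild type fasting went from 1432 to 880 without fasted WT 4 and 829 with only the groups compared, and in knockout fasting from 1772 to 964 without fasted KO 1, fed WT 2 and fed KO 4 together. The difference of responses needs all groups and had no fit on fewer. Quantile normalisation or median centring moved the median of all genes by at most 0.043.

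Sign changes concerned only differences of at most 0.103 that passed no test (adjusted p from 0.778), and the cause was not tested. For fed KO against fed WT they were Acsl5 with median centring (0.027), Fabp2 with quantile normalisation (-0.001), Fabp4 (0.022) and Slc27a2 (-0.004) without fasted KO 1, fed WT 2 and fed KO 4 together, and Slc27a2 (-0.007) and Acsl5 (0.031) without fasted WT 4 and fed KO 4. Without that pair the sign also changed for Fabp1 (0.014) and Fabp4 (-0.052) in wild type fasting, Acsl4 (0.011) between the fasted genotypes and Slc27a4 (0.051) in the difference of responses. With 1 array left out, wild type fasting ran from -0.135 to 0.014 for Fabp1, -0.052 to 0.245 for Fabp4 and -0.191 to 0.129 for Acsl4. Between the fasted genotypes it ran from -0.106 to 0.191 for Fabp4 and -0.19 to 0.059 for Acsl4. Between the fed genotypes it ran from -0.325 to 0.203 for Fabp2, -0.169 to 0.026 for Fabp4, -0.084 to 0.211 for Slc27a1, -0.061 to 0.069 for Slc27a2 and -0.083 to 0.055 for Acsl5. The difference of responses ran from -0.05 to 0.246 for Fabp4, -0.007 to 0.122 for Slc27a2 and -0.139 to 0.077 for Slc27a4.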
